A study of Homo sapiens with 2 samples.

Results

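The genes of fatty acid synthesis, activation, storage and oxidation were examined in PLC-8024 cells with or without GDF1 overexpression. A list of 37 genes was set by gene symbol from their known roles, with earlier results of these data known. Each of the 37 matched 1 row among the 58174 genes of the deposited tables. Of the 37 genes, 35 reached 1 TPM in the control or the GDF1 library and are counted below. ACSL1 (0.80 and 0.71 TPM) and EHHADH (0.99 and 0.57 TPM) did not. TPM, a common unit of transcript level in RNA-seq, is scaled by gene length and by the sum of the library.

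PLC-8024 is a human hepatocellular carcinoma (HCC) cell line. PLC-8024-CTR cells carried a control vector and PLC-8024-GDF1 cells were stably transduced with a lentivirus carrying GDF1 and selected with puromycin. GDF1 is a secreted ligand of the TGF-β superfamily. RNA-seq was performed on 1 library per condition (the control library and the GDF1 library), so the overexpressing line stands for 1 selected population and no value has a replicate error. TPM keeps no sequencing depth, so no counting error is given and no test across libraries was possible. All differences therefore describe these 2 libraries, and differences in the number of cells of a kind and in RNA per cell cannot be told apart.

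To compare both, 1 was added to each TPM value and the log2 ratio of the GDF1 library to the control library was taken, so a negative change means a lower level with GDF1. A gene was called higher or lower when this value passed 1 or -1, that is 2-fold. Among the 14929 genes that reached 1 TPM by the same filter, 4.82% were called higher (720 genes) and 9.61% lower (1434 genes), and the median log2 change was -0.20. With TPM rescaled so that the median ratio was 1, the split was 1102 higher and 974 lower, so each change is read against the median of -0.20. The introduced gene was listed at 2.1 TPM in the control library and 4.64 TPM in the GDF1 library. CERS1, whose exons contain the GDF1 coding sequence, was listed at 13.3 and 9612 TPM. Of 12 hepatocyte markers, all reached 1 TPM, 6 were called lower and none higher (median log2 change -0.94), and their summed level was 12963 TPM in the control library and 8533 TPM in the GDF1 library. Of the markers of other cell types, 2 of 6 for leukocytes (LYZ and CD68), 1 of 5 for endothelium (PECAM1), 1 of 6 for fibroblasts (COL3A1) and none of 4 for adipocytes reached 1 TPM. The summed levels of these whole lists in the control and the GDF1 library were 332 and 228 TPM for leukocytes, 23.5 and 22.4 TPM for endothelium, 3.80 and 2.61 TPM for fibroblasts and 0.23 and 0.13 TPM for adipocytes. PTPRC, VWF, DCN and ADIPOQ were listed at 0.0001 TPM, the value that stands for 0, in both libraries.

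Fatty acids are built in the cytosol. ACLY supplies acetyl-CoA, acetyl-CoA carboxylase makes malonyl-CoA and FASN joins these units into palmitate, which elongases and desaturases then modify. An acyl-CoA synthetase must activate a fatty acid before it can be esterified into the triglyceride of lipid droplets or carried into mitochondria by the carnitine palmitoyltransferases. There it is shortened by repeated rounds of dehydrogenation, hydration, a second oxidation and thiolysis, while peroxisomes shorten very long and branched chains. Malonyl-CoA inhibits CPT1, so active synthesis restrains entry into oxidation. Hepatocytes carry out all of these steps.

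No member was called higher and 5 were called lower, 14.3% of the 35 counted genes against the 9.61% of all genes. With rescaled TPM, 2 members were higher (ACSL3 and ELOVL1) and 2 lower (FABP1 and ACSL5), 5.71% in each direction against 7.38% of all genes higher and 6.52% lower. The 5 genes called lower without rescaling were FABP1, ACSL5, ACSL4, ECI2 and ACADM. The list as a whole lay close to the bulk of the transcriptome, with a median log2 change of -0.24, and without FABP1 the median was -0.17. The change of 13 of the 35 genes lay within 0.1 of 0, while the other genes spread down to -2.96 and up to 0.91. ECI2 (-1.02), ACADM (-1.01) and ACSL4 (-1.05) lay just past the 2-fold limit, and PLIN2 (-0.96), ACSL3 (0.91), ACACB (-0.90), ELOVL1 (0.90) and HSD17B4 (-0.89) just inside it. The calls of ECI2, ACADM and ACSL4 therefore rest on small margins, whereas those of FABP1 and ACSL5 do not.

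**Figure D1:**
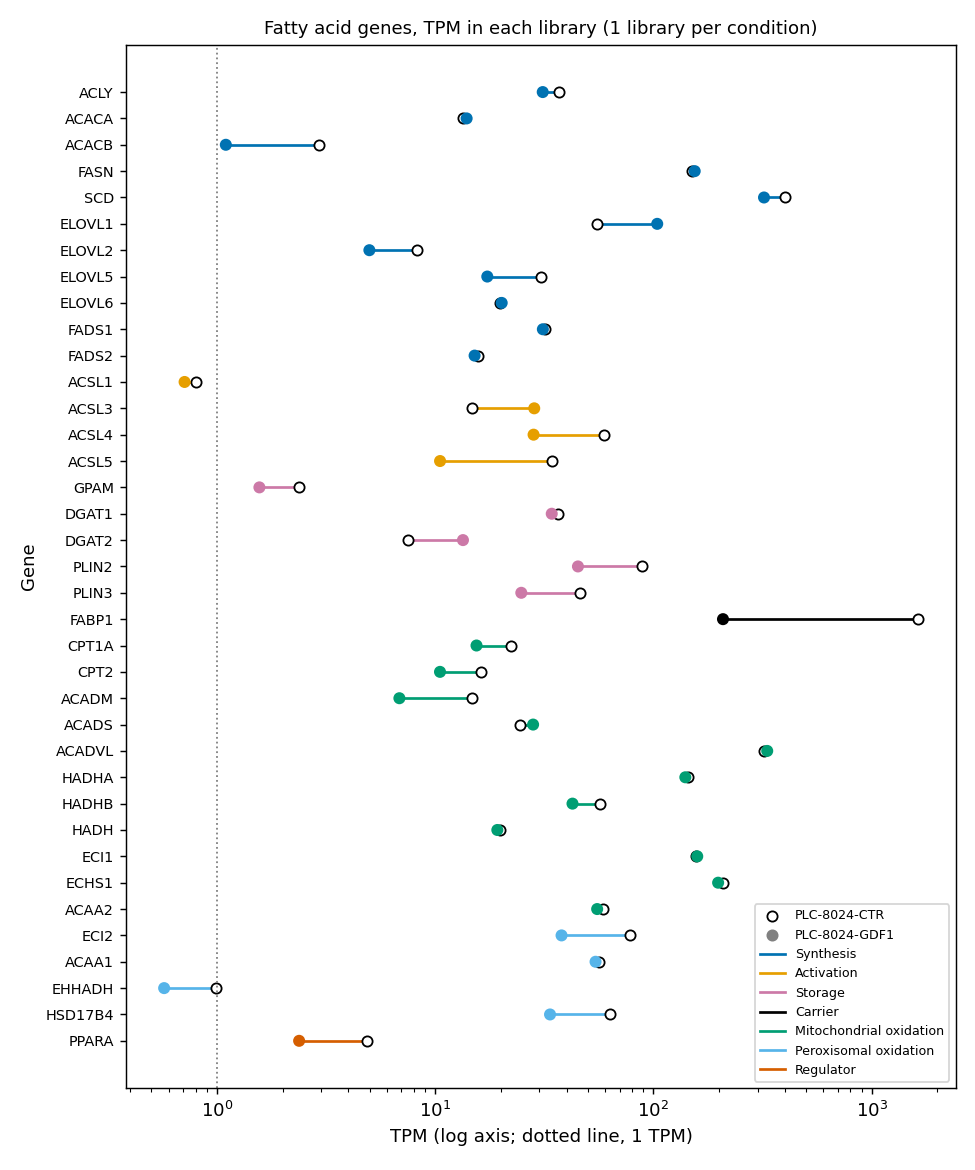
TPM of the 37 fatty acid genes on a log axis in the control library (open circles) and the GDF1 library (filled circles, coloured by role), with 1 library per condition. The widest gap is that of FABP1, and many synthesis and mitochondrial oxidation genes show nearly coinciding circles.

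The sequence before the start site is shown for the 5 genes called lower, so that their motifs can be compared, and for HADHA. By the first RefSeq starts, HADHA begins 307 bases from HADHB on the other strand, with a shared region between them. By the positions of GENCODE, the genes instead overlap over 1503 bases. The sequences are from RefSeq on GRCh38.p14 and hold the 250 bases before the first listed start of each gene, from 5′ to 3′ on the strand of the gene. The windows are chr2:88128063-88128312 for FABP1 (minus), chr10:112375018-112375267 for ACSL5 (plus), chrX:109733258-109733507 for ACSL4 (minus), chr6:4135576-4135825 for ECI2 (minus), chr1:75724459-75724708 for ACADM (plus) and chr2:26244633-26244882 for HADHA (minus). Capitals mark matches on either strand to the letters of the motifs named after the sequences.
FABP1: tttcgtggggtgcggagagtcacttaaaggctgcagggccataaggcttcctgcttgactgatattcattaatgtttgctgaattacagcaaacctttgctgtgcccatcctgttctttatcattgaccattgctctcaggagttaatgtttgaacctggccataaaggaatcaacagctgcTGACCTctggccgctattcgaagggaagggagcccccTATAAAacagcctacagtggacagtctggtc
ACSL5: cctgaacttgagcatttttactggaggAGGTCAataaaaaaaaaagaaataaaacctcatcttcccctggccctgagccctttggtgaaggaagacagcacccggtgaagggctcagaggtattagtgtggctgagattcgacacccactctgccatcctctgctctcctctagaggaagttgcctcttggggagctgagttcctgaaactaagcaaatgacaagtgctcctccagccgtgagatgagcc
ACSL4: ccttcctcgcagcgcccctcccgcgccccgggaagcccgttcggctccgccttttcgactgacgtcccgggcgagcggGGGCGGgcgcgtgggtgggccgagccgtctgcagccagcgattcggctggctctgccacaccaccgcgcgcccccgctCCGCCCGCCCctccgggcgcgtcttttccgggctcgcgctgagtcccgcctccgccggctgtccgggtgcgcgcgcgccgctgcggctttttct
ECI2: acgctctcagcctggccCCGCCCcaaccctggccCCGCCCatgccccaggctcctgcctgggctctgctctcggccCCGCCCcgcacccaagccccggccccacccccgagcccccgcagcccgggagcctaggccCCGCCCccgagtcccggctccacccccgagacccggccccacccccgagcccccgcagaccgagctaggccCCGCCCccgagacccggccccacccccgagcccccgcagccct
ACADM: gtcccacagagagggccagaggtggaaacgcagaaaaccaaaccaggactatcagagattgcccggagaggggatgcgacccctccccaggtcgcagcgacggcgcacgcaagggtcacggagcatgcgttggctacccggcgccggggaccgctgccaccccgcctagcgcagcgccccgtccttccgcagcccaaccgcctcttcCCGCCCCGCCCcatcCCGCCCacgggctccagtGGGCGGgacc
HADHA: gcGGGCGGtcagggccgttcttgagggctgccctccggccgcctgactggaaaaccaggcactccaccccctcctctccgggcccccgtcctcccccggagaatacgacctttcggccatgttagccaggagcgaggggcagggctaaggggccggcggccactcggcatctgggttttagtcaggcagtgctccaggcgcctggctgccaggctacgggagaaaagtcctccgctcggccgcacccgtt

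Of the 37 genes, 32 had such a sequence, while FASN, DGAT1, DGAT2, ACAA1 and EHHADH had none and were not searched. Each motif was searched on both strands. The sterol regulatory element, which SREBF1 binds, was searched as TCACNCCAC. The E-box was searched as CACGTG. The half-site of nuclear receptors such as PPARA and HNF4A was searched as AGGTCA. The GC box, which SP1 binds, was searched as GGGCGG. The CAGA box, which SMAD3 binds, was searched by the letters CAGACA. The TATA box was searched by the letters TATAAA and the CCAAT box by the letters of its name. FABP1 held a TATA box 31 bases and a half-site (TGACCT on its strand) 68 bases before the start. ACSL5 held a half-site 223 bases before the start. The half-site was found in 3 of the 32 sequences, the third being ELOVL6, and in 12.1% of 27305 promoters. ACSL4, ECI2 and ACADM held 3, 5 and 4 GC boxes, and GC boxes occurred in 24 of the 32 sequences and in 42.3% of all promoters. No motif searched was present in all 5 genes called lower. The CAGA box was found in 2 of the 32 (ACSL1 and CPT1A; 13.6% of all promoters), the E-box in 2 (ELOVL5 and PLIN2; 6.49%), the TATA box in 3 (11.1%) and the CCAAT box in 8, of which 4 were synthesis genes and 1 was an oxidation gene (33.0%). The sterol regulatory element was in none of the 32, which do not include FASN, and in 0.88% of all promoters. A match of letters is a description and not a bound site.

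FABP1 showed the largest difference of the list. It encodes the liver fatty acid-binding protein, an abundant cytosolic carrier of fatty acids in hepatocytes. FABP1 (ENSG00000163586, chromosome 2 of GRCh37, 88422501 to 88427581, minus strand) was listed at 1629 TPM in the control library and at 208 TPM in the GDF1 library. It fell 7.82-fold by the plain TPM ratio, with a log2 change of -2.96, or -2.76 relative to the median of all genes. Only 39 of the 14929 genes had a lower log2 change. By level, FABP1 ranked 94 among all genes in the control library and 650 in the GDF1 library, where only ACADVL and SCD among the members had higher levels. FABP5, the carrier typical of epidermal and tumour cells, was listed at 694 and 598 TPM. The hepatocyte markers that were called lower beside FABP1 were ALB, TTR, APOA1, APOA2, AHSG and HNF4A. AHSG, a secreted hepatocyte glycoprotein, was listed at 399 and 25.8 TPM. FGA, which encodes the fibrinogen α chain, was listed at 468 and 911 TPM (log2 change 0.96), and TF, the iron carrier transferrin, at 1318 and 1434 TPM. With rescaled TPM, 4 of the 12 markers were called lower (TTR, APOA1, APOA2 and AHSG) and FGA was called higher. The part of this marker shift in the FABP1 result was not tested.

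The acyl-CoA synthetases differed in direction. ACSL5 (ENSG00000197142, chromosome 10 of GRCh37, 114133874 to 114188137, plus strand), a synthetase of mitochondria and the endoplasmic reticulum, fell from 34.1 to 10.5 TPM (log2 change -1.61). ACSL4 (ENSG00000068366, chromosome X, 108867473 to 108976632, minus strand), which prefers arachidonic acid and other polyunsaturated fatty acids, fell from 59.3 to 28.2 TPM (log2 change -1.05). ACSL3, which acts on the endoplasmic reticulum and nascent lipid droplets, was listed at 14.7 and 28.4 TPM (log2 change 0.91). With rescaled TPM, ACSL4 did not pass 2-fold (-0.82) and ACSL3 did (1.14). Relative to the median of all genes the changes were -1.41 for ACSL5, -0.85 for ACSL4 and 1.11 for ACSL3. ACSL1, the main synthetase of mature hepatocytes, was under 1 TPM in both libraries.

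The makeup of the family shifted accordingly. The 4 ACSL genes summed to 109 TPM in the control library and 67.9 TPM in the GDF1 library. ACSL3 gave 13.5% of this sum in the control library and 41.9% in the GDF1 library. ACSL4 gave 54.5% and 41.6%, and ACSL5 gave 31.3% and 15.5%. ACSL4 was thus the leading synthetase in the control library, while ACSL3 and ACSL4 were level in the GDF1 library. Such shares do not depend on how the libraries are scaled.

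**Figure D2:**
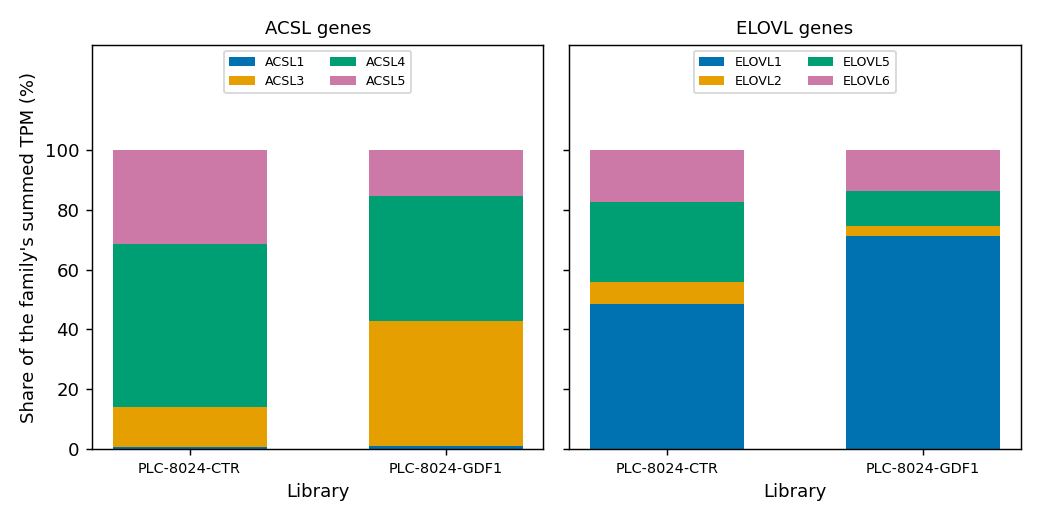
Stacked bars of the share of each gene (percent, vertical axis) in the summed TPM of the 4 ACSL and the 4 ELOVL genes in each library. The ACSL3 share goes from 13.5% to 41.9% and the ELOVL1 share from 48.6% to 71.0%.

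Most genes of synthesis were listed at similar levels in both libraries. None of the 11 was called in either direction, against 14.4% of all genes, while ELOVL1 was called higher with rescaled TPM (1.14) and with the GC trend removed (1.05), that is after subtracting a smooth fit of the change on GC content. The median log2 change of the 11 was -0.05, which is 0.14 above the median of all genes. FASN, the fatty acid synthase, was listed at 151 and 155 TPM, and ACACA, the cytosolic acetyl-CoA carboxylase that feeds it, at 13.4 and 13.9 TPM. ACLY, the ATP citrate lyase, was listed at 36.9 and 31.1 TPM. These 3 genes of the central route had log2 changes of 0.03, 0.05 and -0.24. ACACB, whose malonyl-CoA is made at the mitochondrial surface where it restrains CPT1, was listed at 2.92 and 1.10 TPM, with a log2 change of -0.90. By the plain ratio, without a pseudocount, ACACB passed 2-fold at -1.41.

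The desaturases introduce double bonds. SCD, which makes monounsaturated fatty acids, had the second highest level of the list in the control library, 401 TPM, and 321 TPM in the GDF1 library. FADS1 was listed at 31.98 and 31.1 TPM and FADS2 at 15.8 and 15.2 TPM, and both act on polyunsaturated fatty acids. The log2 changes of the 3 desaturases lay between -0.32 and -0.04.

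The elongases spread most within synthesis. ELOVL1, which extends saturated very long chains, was listed at 55.2 and 104 TPM (log2 change 0.90). ELOVL5 and ELOVL2, which extend polyunsaturated chains, were listed at 30.4 and 17.3 TPM and at 8.27 and 4.99 TPM. Their log2 changes were -0.78 and -0.63. ELOVL6, which extends palmitate, was listed at 19.8 and 20.2 TPM. The 4 genes summed to 114 TPM in the control library and 147 TPM in the GDF1 library. ELOVL1 gave 48.6% of the sum in the control library and 71.0% in the GDF1 library, whereas ELOVL5 gave 26.7% and 11.8%.

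Oxidation, the opposite route, also had a median near 0. Of its 15 genes, 14 were counted, with a median log2 change of -0.08, which is 0.12 above the median of all genes. ECI2 and ACADM were called lower (14.3%, against 9.61% of all genes) and none higher. Neither passed 2-fold with rescaled TPM (-0.79 and -0.80) or with the GC trend removed (-0.63 and -0.62). The 11 mitochondrial genes had a median of -0.08. The peroxisomal genes ECI2, ACAA1 and HSD17B4 had a median of -0.89. With the GC trend removed, ECI2 was at -0.63, ACAA1 at 0.23 and HSD17B4 at -0.42.

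Entry into mitochondria is carried out by CPT1A on the outer and CPT2 on the inner membrane. CPT1A was listed at 22.3 and 15.5 TPM and CPT2 at 16.2 and 10.5 TPM, with log2 changes of -0.50 and -0.58. The acyl-CoA dehydrogenases, which start each round, act on chains of different length. ACADVL, for very long chains, was the most abundant gene of oxidation and was listed at 322 and 332 TPM. ACADM (ENSG00000117054, chromosome 1 of GRCh37, 76190116 to 76253260, plus strand), for medium chains, fell from 14.8 to 6.85 TPM (log2 change -1.01). ACADS, for short chains, was listed at 24.5 and 28.1 TPM (log2 change 0.19). Of the 3 dehydrogenases, ACADM alone passed 2-fold.

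The later steps of the round showed small differences. HADHA and HADHB encode the α and β subunits of the mitochondrial trifunctional protein, which handles long chains. HADHA was listed at 144 and 140.1 TPM and HADHB at 56.9 and 42.6 TPM, so that the ratio of the subunit transcripts was 2.54 in the control library and 3.29 in the GDF1 library. HADH, for shorter chains, was listed at 19.7 and 19.3 TPM. ECHS1, the short-chain hydratase, was listed at 209 and 198 TPM, and ECI1, an isomerase for unsaturated chains, at 157 and 159 TPM. ACAA2, the last thiolase, was listed at 58.6 and 55.2 TPM. Of these 6 genes, HADHB had the lowest log2 change, -0.41.

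In peroxisomes, ECI2 (ENSG00000198721, chromosome 6 of GRCh37, 4115927 to 4135831, minus strand), an isomerase for unsaturated chains, fell from 77.9 to 37.9 TPM (log2 change -1.02). HSD17B4, a bifunctional enzyme for very long and branched chains, was listed at 63.3 and 33.6 TPM (log2 change -0.89). ACAA1, the peroxisomal thiolase, was listed at 56.3 and 54.3 TPM. PPARA, the nuclear receptor that activates many oxidation genes in liver, was listed at 4.88 and 2.38 TPM. Its log2 change was -0.80, and -1.04 without the pseudocount.

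Synthesis was then compared with oxidation. The medians of -0.05 and -0.08 differed by 0.03, far less than the range within either list (-0.90 to 0.90 and -1.02 to 0.19). The summed TPM of the 11 synthesis genes was 766 in the control library and 715 in the GDF1 library. That of the 15 oxidation genes was 1244 and 1134. The ratio of synthesis to oxidation was 0.62 in the control library and 0.63 in the GDF1 library. Genes are not replicates, so no error can be put on these differences.

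**Figure D3:**
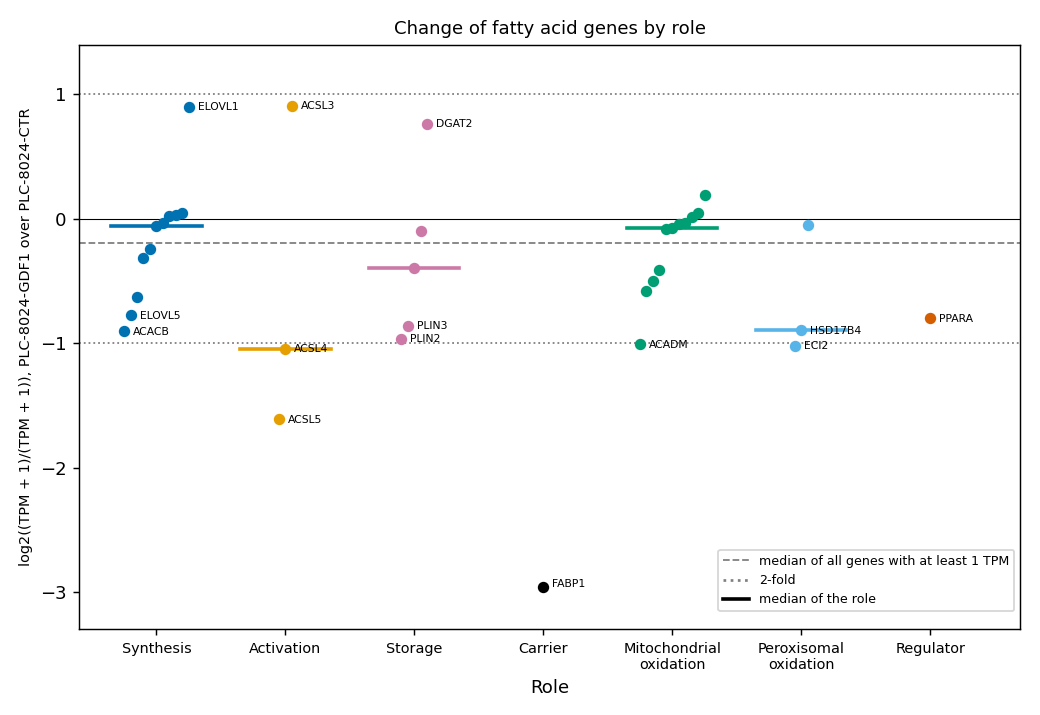
Log2 change of the 35 counted genes (vertical axis) by role, with 1 point per gene, the median of each role as a bar, the median of all genes (-0.20) as a dashed line and 2-fold as dotted lines. The medians of synthesis (-0.05) and mitochondrial oxidation (-0.08) lie side by side, above the dashed line, while FABP1 stands apart at -2.96.

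None of the 5 storage genes was called, against 14.4% of all genes, and their median log2 change was -0.40. Of the 5, 3 lay below the median of all genes and 2 above it. PLIN2, the droplet coat protein typical of hepatocytes, was listed at 88.8 and 45.1 TPM, and PLIN3, which coats nascent droplets, at 45.8 and 24.8 TPM. Their log2 changes were -0.96 and -0.86, and their shares of the summed PLIN2 and PLIN3 level were nearly equal in both libraries (66.0% and 64.5% for PLIN2). PLIN3 passed 2-fold, at -1.03, with the GC trend removed and the median of all genes kept. DGAT1 and DGAT2 catalyse the last step of triglyceride synthesis. DGAT1 was listed at 36.6 and 34.2 TPM and DGAT2 at 7.48 and 13.4 TPM, so that the ratio of DGAT1 to DGAT2 was 4.89 in the control library and 2.55 in the GDF1 library. GPAM, the mitochondrial acyltransferase of the first step, was listed at 2.38 and 1.56 TPM.

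Other genes of the same pathways were examined in lists set by function, also with earlier results of these data known. Of 147 such genes, 115 had at least 1 TPM, of which 2 were called higher and 13 lower (11.3%, against 9.61% of all genes). The list of glycerolipid assembly and droplet coat genes had the most calls, with 7 of 18 counted genes lower (38.9%) and none higher, and a median log2 change of -0.66. GPAT3, an acyltransferase of the first step, was listed at 10.7 and 0.82 TPM (log2 change -2.69). AGPAT2, which acts at the next step, fell from 140 to 41.8 TPM. HILPDA, an inhibitor of droplet lipolysis, fell from 104 to 27.5 TPM. MTTP, which loads lipid onto apolipoprotein B, fell from 10.2 to 3.01 TPM, CIDEB, a droplet protein of hepatocytes, from 8.83 to 2.92 TPM, and LPIN3, a phosphatidate phosphatase, from 11.1 to 4.22 TPM. LPIN1, the other gene called lower, is named outside the naming rule and was listed at 2.87 and 0.53 TPM. With TPM rescaled to a median ratio of 1, 7 of the 18 were again called lower (38.9%, against 6.52% of all genes).

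The regulators of synthesis and the genes of its supply had a median log2 change of -0.21, with a range from -1.06 to 0.47. SREBF1, which encodes the transcription factor that drives the synthesis genes, was listed at 147 and 149.7 TPM, and MLXIPL, which encodes the carbohydrate-sensing factor ChREBP, at 27.7 and 18.7 TPM. Of the 23 counted genes of lipogenic control and supply, MID1IP1, an activator of acetyl-CoA carboxylase, was the 1 called lower (4.35%, against 9.61% of all genes), from 38.9 to 18.2 TPM. With rescaled TPM, and also with the GC trend removed, none of the 23 was called. A pseudocount of 0.1, and likewise the plain ratio, gave 2 genes called lower (8.70%, against 15.5% and 16.3% of all genes). With the GC trend removed and the median of all genes kept, 3 were called lower (13.0%, against 9.14% of all genes). HSD17B12, the ketoacyl-CoA reductase of the elongation cycle, fell from 31.3 to 12.3 TPM (log2 change -1.28, and not past 2-fold with the GC trend removed), whereas TECR, the reductase of its last step, was listed at 438 and 663 TPM.

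Among other peroxisomal genes, 3 of 16 were called lower (18.8%, against 9.61% of all genes) and the median log2 change was -0.63. ACOX2, the oxidase for branched chains and bile acid intermediates, fell from 82.0 to 22.4 TPM, and PEX5, the import receptor of the peroxisomal matrix, from 19.3 to 5.08 TPM. AMACR, a racemase for branched chains named outside the naming rule, was listed at 4.01 and 1.36 TPM. With rescaled TPM, 2 of the 16 (ACOX2 and PEX5) were called lower, 12.5% against 6.52% of all genes. With the GC trend removed, the same 2 were called lower (12.5%, against 5.38% of all genes) and the median was -0.25. Of the 22 counted genes in the list of the carnitine shuttle and other mitochondrial oxidation, none was called lower, against 9.61% of all genes. CPT1C, a brain isoform named outside the naming rule, was the 1 called higher, against 4.82% of all genes. It was listed at 0.74 and 3.99 TPM. The median of the 22 genes was -0.21.

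**Figure D4:**
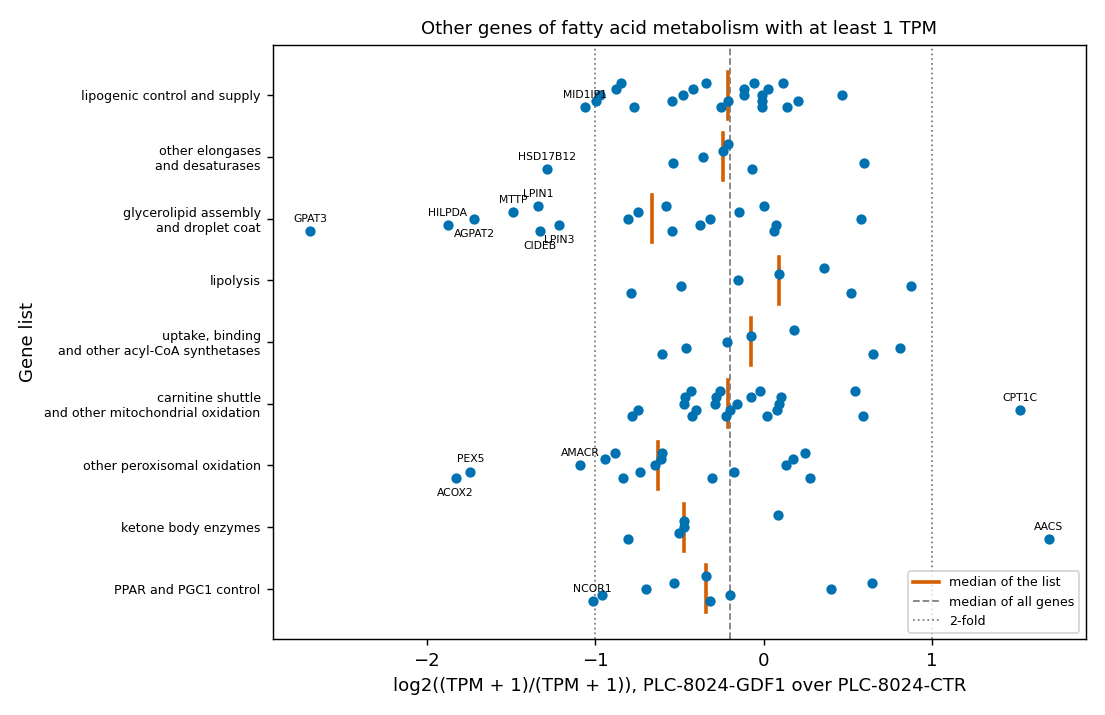
Log2 change (horizontal axis) of 115 other genes of fatty acid metabolism with at least 1 TPM, by list, with the median of each list, the median of all genes (dashed) and 2-fold (dotted). The glycerolipid list holds 7 of the 13 genes called lower.

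The log2 change followed GC content across all genes, and the medians of the members ran in the same order. The part of GC content in the members' values was not tested beyond the values given here. Among 5 equal groups of protein-coding genes by GC content of the longest transcript, the median log2 change was -0.48 in the lowest group and 0.11 in the highest. The 5 members in the lowest group had a median of -0.63 and the 4 members in the highest a median of 0.02. The 5 members called lower had GC contents of 35.5% to 47.3%. Relative to the median of their GC group, FABP1 (-2.68) and ACSL5 (-1.20) were still lower by over 2-fold, while ACSL4 (-0.57), ECI2 (-0.61) and ACADM (-0.60) were not. ACSL3 (1.38), DGAT2 (1.05) and ELOVL1 (1.03) were then higher by over 2-fold. The medians of synthesis and oxidation after this subtraction were 0.04 and 0.02.

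**Figure D5:**
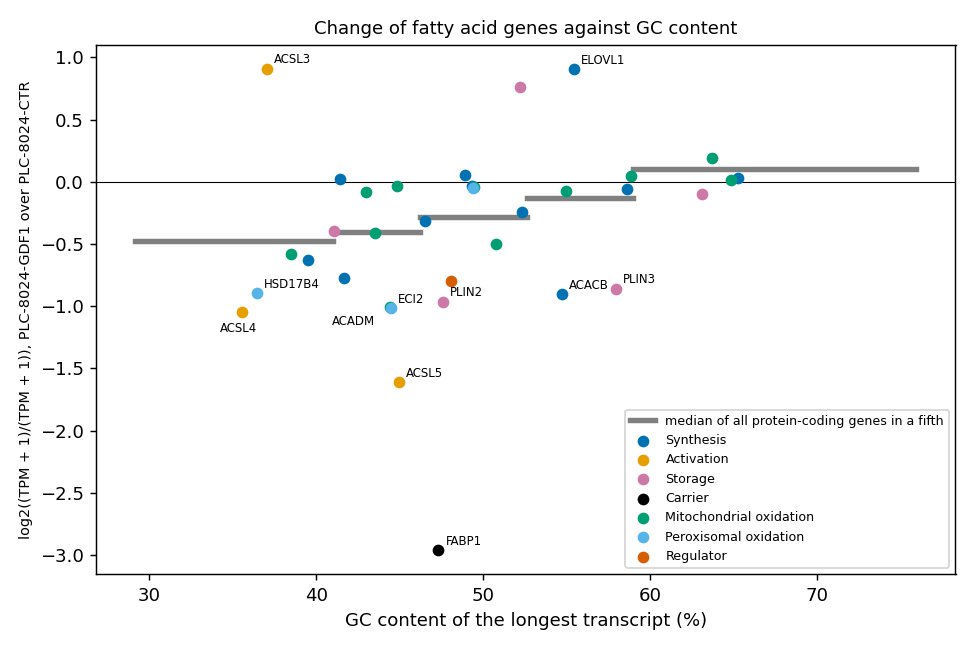
Log2 change (vertical axis) of the 35 counted genes against GC content of the longest transcript (percent), coloured by role, with the median of all protein-coding genes in each of 5 equal GC groups as grey bars. FABP1 (-2.96) and ACSL5 (-1.61) lie far below their grey bars, and ACSL3 (0.91) and ELOVL1 (0.90) far above.

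Neighbouring genes could share reads with some members. On their own strand, 6 members were overlapped by another expressed gene, among them ACADM and ACSL4, which were called lower. RABGGTB, which overlaps ACADM, was listed at 142 and 76.4 TPM, and the added TPM had a log2 change of -0.90. KCNE5, within ACSL4, was listed at 2.79 and 2.48 TPM, and the added TPM had a log2 change of -0.99. Both sums fall inside the 2-fold limit, but RABGGTB gave 142 of the 156 TPM of its sum in the control library. Its own log2 change was -0.88, so that sum mostly follows RABGGTB and cannot decide the ACADM call. FEN1, which overlaps FADS2, was listed at 39.4 and 41.8 TPM, and the added TPM had a log2 change of 0.05. UNG, which overlaps ACACB, was listed at 15.9 and 8.45 TPM, and the added TPM had a log2 change of -0.91. FEN1 and UNG also gave most of their sums, which were 55.2 and 18.8 TPM in the control library. On the opposite strand, ZDHHC6 overlaps ACSL5 over 3952 bases and was listed at 17.2 and 10.1 TPM. FADS1 and FADS2 overlap each other over 29692 bases, and HADHA and HADHB over 1503 bases. No overlapping expressed gene was annotated for FABP1 or ECI2.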

How the data were processed

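RNA-seq of 2 libraries, 1 of control and 1 of GDF1-overexpressing PLC-8024 cells, was analysed. Per the labels and the methods of the study, reads were checked with FastQC 0.11.2, filtered with Trimmomatic 0.36, aligned to hg19 with HISAT2 2.1.0 and quantified with StringTie 1.3.3b. The deposited files hold 1 TPM value per gene and library, computed by the authors. TPM values hold no depth, and with 1 library per condition no test was run.

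The tables were joined on the gene identifier. Log2 changes used a pseudocount of 1, and genes that reached 1 TPM in the control or the GDF1 library were counted. Positions, GC content and overlaps came from GENCODE v44 on GRCh37, which held 55726 of the 58174 identifiers. The identifiers are those of Ensembl, while the methods name RefSeq. The GC trend was a lowess fit with a span of 0.3 over expressed protein-coding genes. Members and lists were chosen with earlier results of these data known. The named genes were all 37 members, listed pathway genes past 2-fold with at least 5 TPM in either library, SREBF1, MLXIPL, PPARGC1A, GDF1 and CERS1, and overlapping neighbours. Some genes that the rule names are not reported here. Other names were chosen after their values were seen. Python 3.11.15 with statsmodels 0.14.6, pandas 2.3.3, numpy 2.4.6 and matplotlib 3.10.9 served for all steps. Of these steps, the 2-fold calls, the rescaling of TPM and the removal of the GC trend were tested on simulated data. The planted changes lay well past 2-fold, with small noise and control levels above 1 TPM. Calls near the 2-fold limit and genes near 1 TPM were therefore not tested.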

Additional observations from a re-analysis of the deposited data

How the results depend on the processing

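No paired analysis was possible because only 1 library was made of each cell population. Values were judged by direction and by the 2-fold limit, and counts by whether they stayed within 1.5 times the first value. Of the 35 counted members, 21 kept their direction under all 6 alternatives run for single genes (16 lower, 5 higher), among them FABP1, ACSL5, ACSL3 and ELOVL1. The 14 that turned had changes of at most 0.40 in size. FABP1 and ACSL5 stayed past 2-fold throughout, at -2.64 and -1.23 at the least.

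With TPM of PLC-8024-GDF1 multiplied by 1.18, 2 members were higher (ACSL3 and ELOVL1) and 2 lower, and the medians were 0.17 for synthesis, 0.15 for oxidation and -0.82 for activation. With the GC trend removed, 2 members were higher and 2 lower (5.71% each way, against 7.04% of all genes higher and 5.38% lower). These medians were then 0.0075, 0.036 and -0.57. Synthesis minus oxidation was then -0.028, against 0.03 at first, so its sign is not stable. An alternative that kept the median while the GC trend was removed was added once the values had been seen. It gave 1 member higher (2.86%, against 3.98% of all genes) and 3 lower (8.57%, against 9.14%). Its activation median was -0.83 and synthesis minus oxidation was again -0.028. With no filter on low values the activation median was -0.56, because ACSL1 entered.

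Over all genes, 1167 were higher and 2315 lower with a pseudocount of 0.1, and 1229 and 2437 with the plain ratio. Under each of these settings ACACB and PPARA also passed 2-fold, so that 7 members were lower. That is 20% of the members, against 15.5% of all genes lower with the pseudocount and 16.3% with the plain ratio. There were 1102 higher with rescaled TPM, 788 lower with the GC trend removed and 471 higher with at least 5 TPM. The 471 are 4.89% of the 9632 genes that reached 5 TPM, nearly the 4.82% found at first. Higher genes made up 33.4% of all calls at first, 53.1% with rescaled TPM and 56.7% with the GC trend removed. TPM without depth limits genes near 1 TPM most.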

Other observations

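Lists of further genes were also examined. Of the 7 lipolysis genes, none was called, against 14.4% of all genes, and the median log2 change was 0.09. LIPE, the hormone-sensitive lipase, was listed at 1.74 and 4.02 TPM (log2 change 0.88) and passed 2-fold with a pseudocount of 0.1, with the plain ratio and with rescaled TPM. PNPLA2, the triglyceride lipase that starts droplet lipolysis, was listed at 268 and 344 TPM, and G0S2, which inhibits it, at 15.8 and 8.72 TPM. Of the 7 counted genes of uptake and binding, none was called, again against 14.4%. SLC27A5, a fatty acid transport protein of liver, was listed at 44.8 and 79.2 TPM (log2 change 0.81) and passed 2-fold with rescaled TPM (1.04) and, barely, with the GC trend removed (1.00). CD36, a fatty acid receptor, was listed at 0.0001 TPM in both libraries.

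Among the 6 counted ketone body enzymes, 1 was called higher, against 4.82% of all genes, and none lower, against 9.61%. This was AACS, which returns acetoacetate to lipid synthesis in the cytosol and rose from 7.23 to 25.6 TPM (log2 change 1.69). Of the 9 counted genes of PPAR and PGC1 control, 1 was called lower (11.1%, against 9.61% of all genes) and none higher. This was NCOR1, a corepressor of nuclear receptors, which fell from 21.5 to 10.2 TPM (log2 change -1.01). This call was lost after either rescaling TPM or removing the GC trend. PPARGC1A, the coactivator PGC1α, was under 0.1 TPM in both libraries.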
